A study of Capra hircus with 72 samples.

Results

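The extracellular matrix genes described here are collagens, laminins, nidogen, integrins, fibrillins, fibulin, emilins, lysyl oxidase-like enzymes, thrombospondins and small or large proteoglycans, compared between goats that were transported by road and goats that stayed in pens. They were taken by gene name from the 6 deposited tables of the series, each of which compares 1 transport group with its controls. The rule found 40 genes of the 7558 distinct genes that the tables list. One of them, COL4A3BP, met the rule by its name only, since it encodes a ceramide transfer protein and no matrix protein.

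Skeletal muscle fibres sit in a basement membrane of laminins, nidogens and sheet-forming collagens, and outside it lies a connective tissue of fibrillar collagens, elastic fibres and proteoglycans that is laid down mainly by fibroblasts. Integrins are membrane receptors made of an alpha and a beta subunit that bind this matrix on the outside and the actin cytoskeleton on the inside. Lysyl oxidases and their relatives crosslink collagen and elastin, and thrombospondins are secreted proteins that act on cells and on the matrix around them. Intramuscular connective tissue is known as one of the structures behind the toughness of meat.

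The animals were intact male Spanish goats of 8 months, per the design text, all with feed withheld overnight before the day of the experiment and slaughtered afterwards. That text describes 54 goats, 18 in each treatment, transported for 30 min, transported for 180 min or kept in pens, over a pair of days that no label ties to a library. The blood set holds 4 libraries of 30 min, 7 of 180 min and 7 of controls, and each of the muscle sets, which the tables mark 24H and 6D without a definition in the labels, holds 9 libraries of 30 min, 9 of 180 min and 9 of controls. Libraries are named below by the number in their title. In both muscle sets the title and group tag of library 9 say control while its treatment field names 180 min of transport, and it was kept as a control.

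The 72 libraries held 9.45 to 39.5 M counts (M for 1e+06), with a median of 14.7 M. Each table lists only genes with an unadjusted p-value under 0.05 in the authors' own comparison, so a listed gene had to differ to that degree, and a gene that a table leaves out has no value for that comparison here. Libraries that stood apart for these genes were control libraries 6, 7 and 8 of the blood set, and library 15 of the 180 min group of the 24H muscle set, and the results that rest on them are given with and without them. In the 24H table of 30 min the listed muscle fibre markers (3 of 8) summed to a median of 1.16e+06 normalized counts after 30 min, against 1.41e+06 in controls. Those 3 differed in direction, with MYH2 higher (log2 0.44 in the authors' deposited table) and CKM (-0.35) and TNNT1 (-0.86) lower. In the blood table of 180 min 5 of 8 neutrophil markers were listed and no muscle fibre marker. All results concern bulk tissue, in which fewer cells of a type and less RNA per cell cannot be told apart.

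Across the 6 tables the matrix genes gave 54 listings, with 29 genes in 1 table, 8 in 2 tables and 3 in 3 tables. In blood, 2 genes were listed after 30 min, both lower in transported goats, and 8 after 180 min, of which 2 were higher and 6 lower. In the 24H muscle set, 13 were listed after 30 min (8 higher, 5 lower) and 12 after 180 min (7 higher, 5 lower). In the 6D muscle set, 6 were listed after 30 min (1 higher, 5 lower) and 13 after 180 min (2 higher, 11 lower). Of all listed genes the higher and lower shares were 29.5% and 70.5% in blood at 30 min, 59.4% and 40.6% in blood at 180 min, and 49.0% and 51.0% in 24H muscle at 30 min. They were 48.6% and 51.4% in 24H muscle at 180 min, 48.8% and 51.2% in 6D muscle at 30 min, and 45.6% and 54.4% in 6D muscle at 180 min.

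The authors' deposited table called 1 of 13 matrix genes at an adjusted p under 0.05 after 30 min in the 24H set, where it called 37.0% of all listed genes. It called 1 of 12 after 180 min in that set, where it called 14.4% of listed genes. In the other tables it called 0 matrix genes, against 1.16% of listed genes in blood at 30 min, 5.61% in blood at 180 min, 0.240% in 6D muscle at 30 min and 7.35% in 6D muscle at 180 min. Both calls were FBN2. In 7 of the 54 listings the adjusted p of the authors' deposited table stood at its highest possible value. That value can stand for a gene left out of the adjustment, and these listings were treated here as not adjusted. These were COL1A1, COL1A2, COL6A1, COL8A2, DCN and EMILIN1 in blood at 180 min and LAMC3 in 24H muscle at 30 min. Of all listed genes 398 of 1247 in blood at 180 min and 213 of 4125 in 24H muscle at 30 min stood at that highest value too.

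No matrix gene passed the edgeR quasi-likelihood test in any of the 6 comparisons, with Benjamini-Hochberg adjustment over as many genes as the authors' own adjustment covered. By that test 0.291% of listed genes passed in 24H muscle at 30 min, 1.22% at 180 min, 0.742% in 6D muscle at 180 min, 0.642% in blood at 180 min and 0 in the others. At an unadjusted edgeR p under 0.05 stood 1 and 6 matrix genes in blood at 30 and 180 min, beside 70.7% and 81.6% of listed genes. In 24H muscle they were 12 and 9, beside 90.4% and 91.4%, and in 6D muscle 3 and 11, beside 75.8% and 86.7%. These counts are largely set by the selection of the tables. The DESeq2 Wald test called 2 matrix genes in 24H muscle at 30 min (FBN2 and LAMC3), beside 32.2% of listed genes, and FBN2 at 180 min, where it called 275 of the 1961 listed genes. It called 0 in the other 4 tables, beside 1.40% and 10.1% in blood and 0.240% and 7.48% in 6D muscle at 30 and 180 min. With limma 0 matrix genes passed in each table, beside 0 and 0.722% of listed genes in blood, 0.509% and 1.43% in 24H muscle, and 0.0799% and 0.433% in 6D muscle. In all 54 listings the transported and control libraries overlapped. The share of all listed genes with such overlap was not computed, so this count shows nothing particular to matrix genes.

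**Figure D1:**
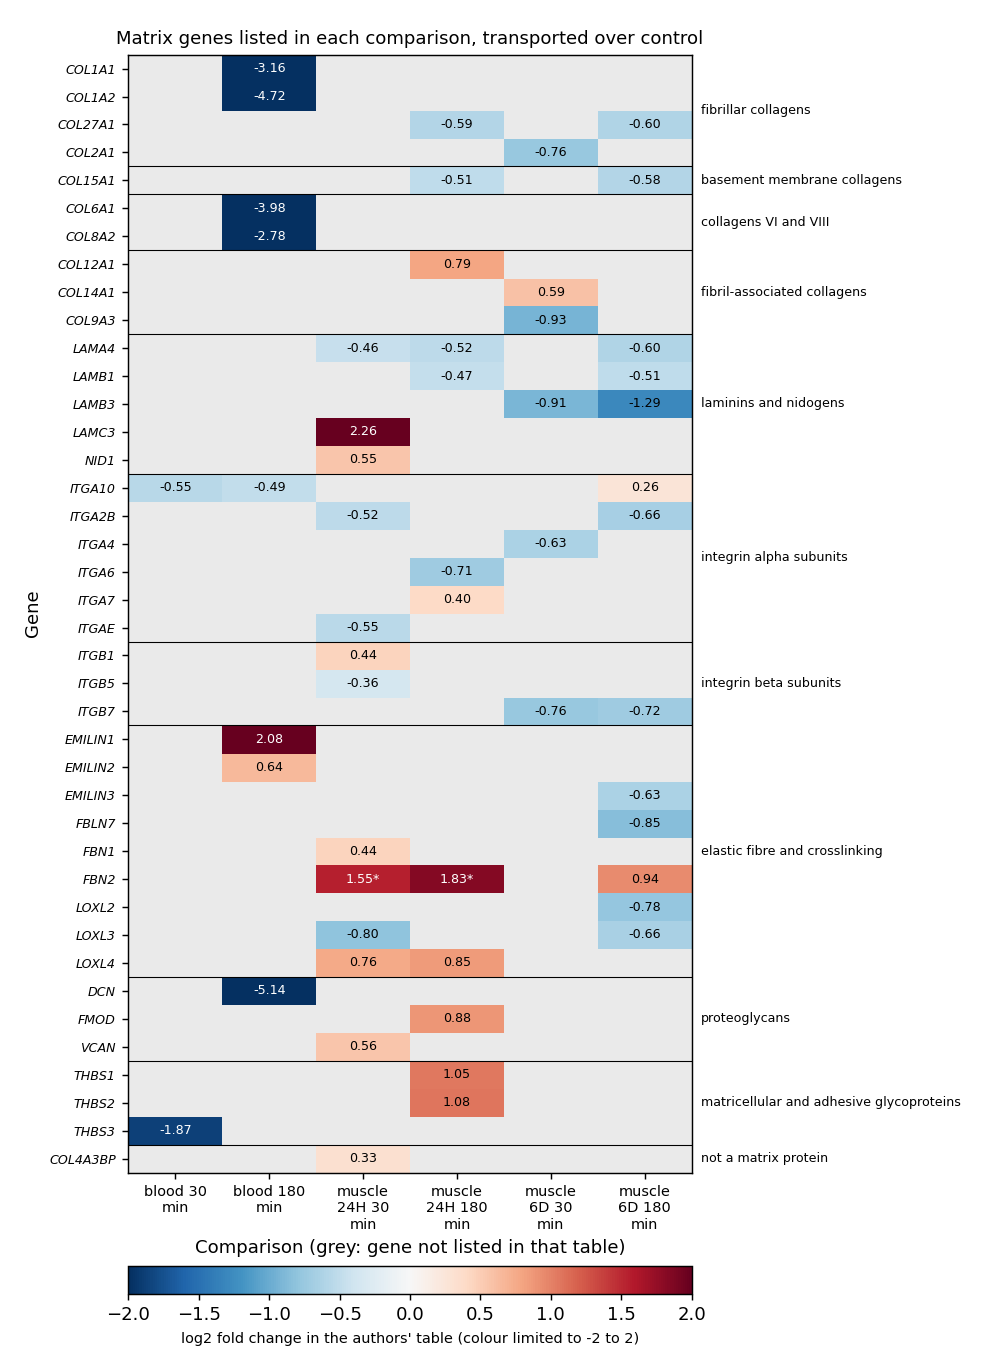
Each row is a matrix gene grouped by role and each column a comparison of transported over control goats. Cells give the log2 fold change of the authors' deposited table, with red for higher and blue for lower in transported goats, grey where the table does not list the gene, and a star at an adjusted p under 0.05 in that table. The stars stand at FBN2 alone, and the blood collagens and DCN show the lowest values, down to -5.14.

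The median log2 fold change of the listed matrix genes in the authors' deposited tables was 0.44 in 24H muscle at 30 min, where all listed genes had -0.22, and 0.60 at 180 min, where all had -0.30. In 6D muscle it was -0.76 at 30 min beside -0.29 for all listed genes, and -0.64 at 180 min beside -0.40. In blood it was -1.21 at 30 min beside -1.10, and -2.97 at 180 min beside 0.78. These medians cover different genes in each table, all selected for a difference. The smallest absolute log2 fold change of a matrix gene in muscle was 0.26, so such a median can switch sign on few genes. In 24H muscle at 180 min it includes COL12A1 and FMOD, whose edgeR values were 0.11 and 0.21 without library 15. In blood at 180 min it includes COL1A1, COL1A2, COL6A1 and DCN, whose counts lay mostly in control libraries 6, 7 and 8.

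FBN2 encodes fibrillin 2, a glycoprotein of the microfibrils that scaffold elastic fibres and bind growth factors of the TGF-beta family (ENSCHIG00000013312, chromosome 7, 84900294 to 85124610). In 24H muscle after 30 min it had 2.40 normalized counts in the lowest, 13.2 in the median and 48.2 in the highest library, against 0.947, 5.22 and 14.8 in controls. After 180 min in that set it had 2.67, 19.6 and 28.6 normalized counts, against 0.857, 4.80 and 13.5 in the same controls under the scaling of that table. Of the 180 min libraries 7 of 9 lay above every control, and at 30 min 4 of 9 did, so the groups overlapped in both.

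The edgeR log2 fold change of FBN2 was 1.53 ± 0.48 (SE, n = 9 each) at 30 min (adjusted p = 0.0719) and 1.81 ± 0.43 at 180 min (adjusted p = 0.0764). The authors' deposited table gives it adjusted p-values of 0.0297 and 0.00419. FBN2 was at a low level in every library, with at most 53 raw counts, and its mean was 0.135 FPKM after 30 min and 0.150 FPKM after 180 min, against 0.0435 FPKM in controls. Its edgeR adjusted p at 30 min was 0.0450 without 30 min library 22, 0.0471 without 30 min library 26, 0.0410 without control library 4 and 0.0475 without control library 8, and at 180 min 0.0339 without 180 min library 14. With each library left out in turn that value ranged from 0.0410 to 0.136 at 30 min and from 0.0339 to 0.1625 at 180 min. The adjusted p also moves with the p-values of the other genes. At 30 min the unadjusted edgeR p of FBN2 was 0.00436 with all libraries. It was no smaller without 30 min library 22 (0.00469) or control library 8 (0.00773), and smaller without 30 min library 26 (0.00108) or control library 4 (0.00121).

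In the 6D set, FBN2 was listed after 180 min only, with 1.20, 12.3 and 22.6 normalized counts as the lowest, median and highest value, against 0.944, 6.29 and 15.1 in controls. Here 7 of 9 transported libraries lay above the control median and 2 above every control. The edgeR log2 fold change was 0.93 ± 0.45 (SE, n = 9 each, adjusted p = 0.514).

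**Figure D2:**
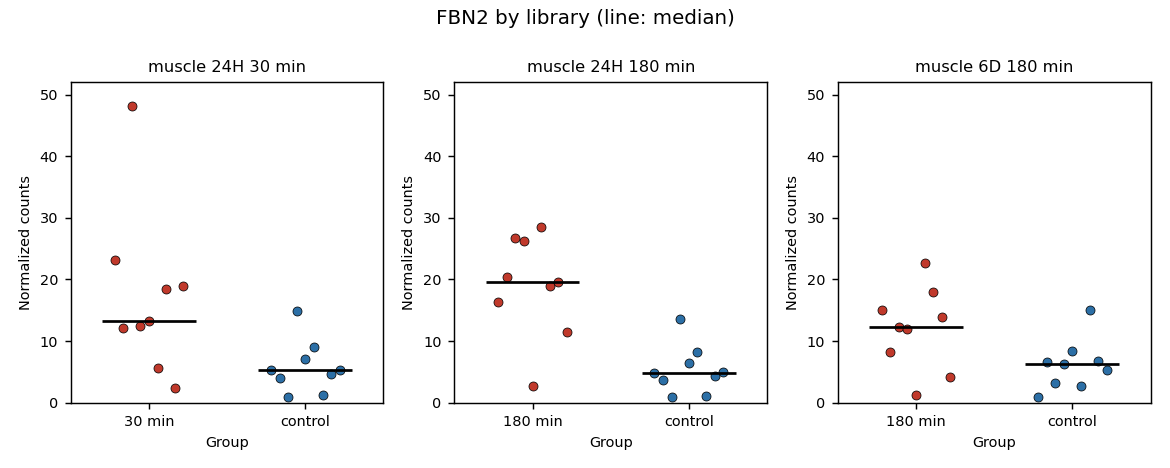
Each point is the FBN2 level of 1 library in normalized counts (vertical axis), with transported goats in red left of controls in blue and a line at the median. In the 3 panels the transported medians are 13.2, 19.6 and 12.3 normalized counts, against 5.22, 4.80 and 6.29 in controls, and the groups overlap in each.

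The related fibrillin gene FBN1, the main microfibril gene of adult tissue, was listed in 24H muscle at 30 min. It had 346, 571 and 883 normalized counts as the lowest, median and highest value, against 218.5, 387.5 and 642 in controls, and an edgeR log2 fold change of 0.44 ± 0.21 (SE, n = 9 each, adjusted p = 0.172). Of the transported libraries 6 of 9 lay above the control median. Per gene length FBN1 stood at 4.30 FPKM after 30 min and 3.04 FPKM in controls, above FBN2 in both groups.

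Lysyl oxidase-like genes, whose enzymes crosslink collagen and elastin, differed in direction. LOXL4 had 12.5, 18.7 and 30.7 normalized counts after 30 min in the 24H set, against 1.18, 11.4 and 25.99 in controls, and all 9 transported libraries lay above the control median (edgeR log2 0.75 ± 0.32 (SE, n = 9 each), adjusted p = 0.130). After 180 min in that set it had 4.09, 19.1 and 41.7, against 1.09, 10.3 and 23.8 in controls, with a log2 fold change of 0.84 ± 0.39 (SE, edgeR adjusted p = 0.380). Both comparisons use the same control libraries.

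LOXL3 was lower after 30 min in the 24H set, at 4.67, 15.2 and 32.9 normalized counts, against 14.97, 29.0 and 64.8 in controls (edgeR log2 -0.80 ± 0.34 (SE, n = 9 each), adjusted p = 0.131). It was also lower after 180 min in the 6D set, at 8.36, 26.3 and 65.5, against 25.8, 44.0 and 116 in controls (log2 -0.65 ± 0.34 (SE), edgeR adjusted p = 0.586). LOXL2 in the 6D set after 180 min had a median of 40.8 normalized counts, against 59.1 in controls, and 8 of 9 transported libraries lay below every control while library 13 stood at 137. Control library 9 held the highest LOXL2 value, 224. Its log2 fold change was -0.77 with all libraries, -0.42 without that library and -1.17 without 180 min library 13, and that of LOXL3 in the 6D set was -0.35 without control library 5. In the 24H set that of LOXL3 was -0.60 without control library 9, its highest control there.

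FBLN7, a fibulin, and EMILIN3, a glycoprotein of the emilin family, were listed in the 6D set after 180 min. FBLN7 had a median of 24.5 normalized counts, against 48.3 in controls, and EMILIN3 39.3 against 75.6. By edgeR the log2 fold changes were -0.84 ± 0.34 and -0.63 ± 0.27 (SE, n = 9 each), with adjusted p-values of 0.409 and 0.451. Of the transported libraries 7 of 9 lay below the control median for each.

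Laminins are heterotrimers of an alpha, a beta and a gamma chain that form the network of the basement membrane. LAMA4, the alpha 4 chain found in the basement membranes of blood vessels and other tissues (ENSCHIG00000019560, chromosome 9, 25513215 to 25660910), was listed in 3 muscle tables and lower in each. After 30 min in the 24H set it had 311.5, 440 and 683 normalized counts as the lowest, median and highest value, against 369, 615 and 942 in controls, and 8 of 9 transported libraries lay below the control median. After 180 min it had 154, 353 and 678, against 338, 556 and 852 in controls, and in the 6D set 266, 393.5 and 939, against 297, 628 and 1275. The edgeR log2 fold changes were -0.46 ± 0.19, -0.52 ± 0.25 and -0.60 ± 0.25 (SE, n = 9 each), with adjusted p-values of 0.112, 0.386 and 0.443. In the 6D set control library 9, whose labels conflict, held the highest control value, and without it the log2 fold change was -0.45.

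LAMB1, a beta chain that pairs with several alpha chains (ENSCHIG00000025890, chromosome 4, 71229200 to 71305140), was listed as lower after 180 min in both muscle sets. It had 489, 627 and 1249 normalized counts in the 24H set, against 636, 1002 and 1492 in controls, and 5 of 9 transported libraries lay below every control. In the 6D set it had 419, 678 and 1239, against 557, 1202 and 1795 in controls, with 8 of 9 transported libraries below the control median. These are log2 fold changes of -0.47 ± 0.21 and -0.51 ± 0.22 (SE, n = 9 each), with edgeR adjusted p-values of 0.341 and 0.452. Control library 9, whose labels conflict, held the highest control value in both sets. Without it the log2 fold changes were -0.40 in the 24H set and -0.40 in the 6D set.

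COL15A1, a collagen of the basement membrane zone of muscle and capillaries (ENSCHIG00000026298, chromosome 8, 63627328 to 63729040), was listed in the same tables. It had 433, 608 and 1510 normalized counts after 180 min in the 24H set, against 466, 895 and 1788 in controls, and 299, 560.5 and 1310 in the 6D set, against 542, 1040 and 1381. In each set 8 of 9 transported libraries lay below the control median. In log2 terms the differences were -0.51 ± 0.25 and -0.58 ± 0.25 (SE, n = 9 each), with edgeR adjusted p-values of 0.396 and 0.445.

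COL27A1, a fibrillar collagen gene best known from cartilage (ENSCHIG00000026756, chromosome 8, 103098487 to 103229306), had 41.9, 63.2 and 85.5 normalized counts after 180 min in the 24H set, against 52.4, 94.1 and 153 in controls. All 9 transported libraries lay below the control median. In the 6D set it had 58.1, 97.5 and 177, against 70.2, 128 and 331 in controls. COL27A1 thus had log2 fold changes of -0.58 ± 0.20 and -0.59 ± 0.27 (SE, n = 9 each), with edgeR adjusted p-values of 0.200 and 0.477, and the 6D value was -0.36 without control library 5.

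**Figure D3:**
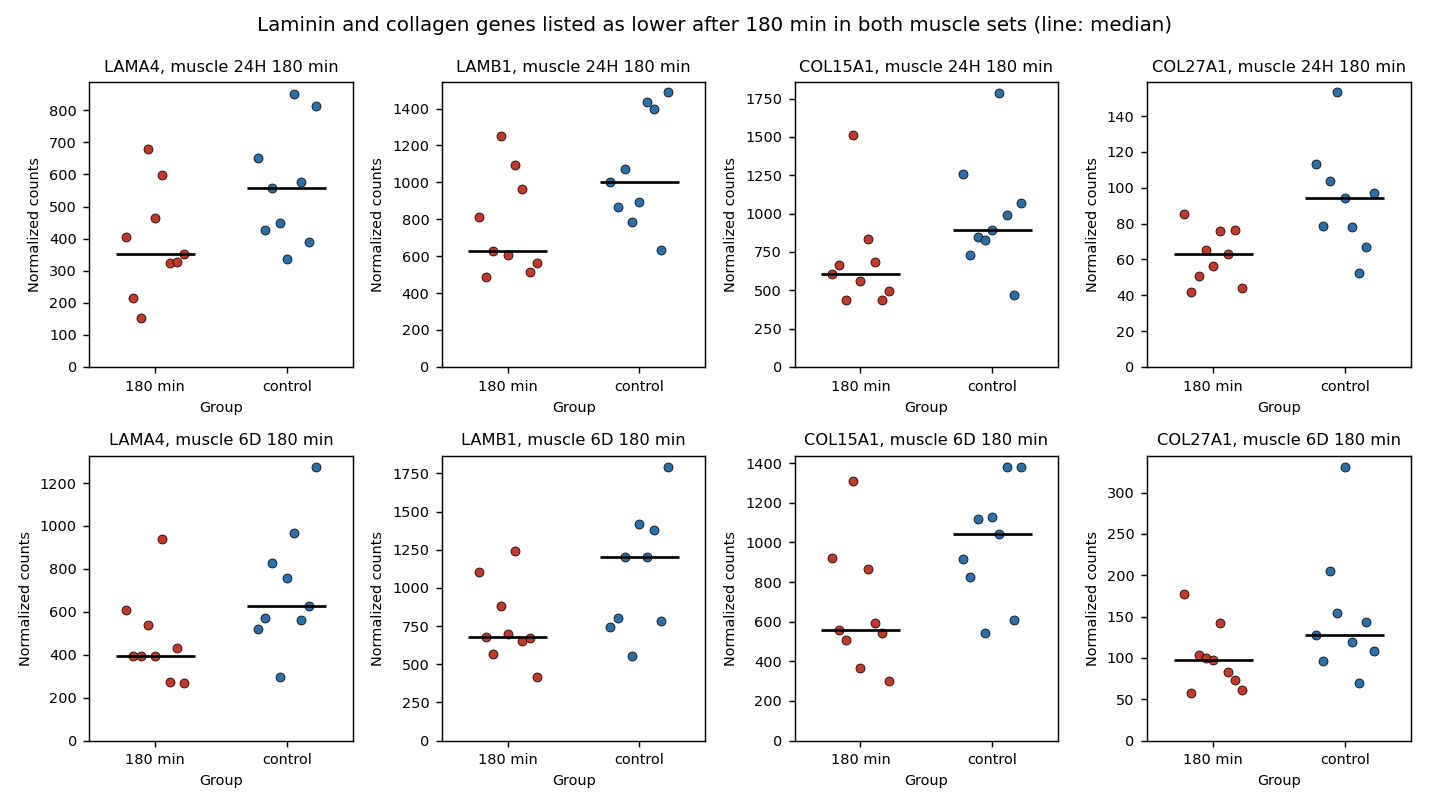
Each point is 1 library of the 180 min group (red, left) or the controls (blue, right), with normalized counts on the vertical axis and a line at the median, for LAMA4, LAMB1, COL15A1 and COL27A1 in the 24H set (upper row) and the 6D set (lower row). In all 8 panels the median is lower after 180 min (for LAMB1 627 against 1002 and 678 against 1202) and the groups overlap.

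Same-numbered libraries of the muscle sets deviated together, so the sets do not add independent animals, and the recurrence of these genes in both is not a second experiment. Across the 18 numbers of the 180 min and control groups, with each value taken as its deviation from its group mean of log2(normalized counts + 1), LAMB1 in the 24H set and in the 6D set had Pearson's r = 0.675 (permutation p = 0.00312) and Spearman's rho = 0.690 (permutation p = 0.00216). For COL15A1 r was 0.657 (permutation p = 0.00382) and rho 0.703 (permutation p = 0.00199), and for COL27A1 r was 0.583 (permutation p = 0.0163) and rho 0.585 (permutation p = 0.0149). For LAMA4 r was 0.484 (permutation p = 0.0471) and rho 0.496 (permutation p = 0.0429), and the adjusted p of r over the 14 relations computed was 0.0599. For FBN2 r was 0.405 (permutation p = 0.104) and rho 0.174 (permutation p = 0.498), and r was -0.10 without the 2 libraries farthest from the median. Without those 2 libraries r was 0.634 for LAMB1, 0.574 for COL15A1, 0.531 for COL27A1 and 0.537 for LAMA4.

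LAMA4, LAMB1 and COL15A1 also varied together from library to library within the groups. LAMA4 and LAMB1 had r = 0.724 and rho = 0.728 in the 24H set (permutation p = 0.00146 and 0.00158, n = 18) and r = 0.871 and rho = 0.804 in the 6D set (permutation p = 1e-05 and 0.00033, the first the smallest the permutations can give). LAMB1 and COL15A1 had r = 0.792 and rho = 0.792 in the 24H set (permutation p = 7e-05 and 0.00016) and r = 0.832 and rho = 0.841 in the 6D set (permutation p = 1e-05 and 3e-05). LAMA4 and COL15A1 had r = 0.706 and rho = 0.670 in the 24H set (permutation p = 0.00135 and 0.00404) and r = 0.686 and rho = 0.614 in the 6D set (permutation p = 0.00225 and 0.00957). Without the 2 libraries farthest from the median these 6 values of r lay between 0.594 and 0.824, and the adjusted p-values of r between 7e-05 and 0.0045. The genes were chosen after their values were seen, and libraries share their size factor and RNA makeup across genes.

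The listed endothelial markers were lower in each muscle table, also where these genes were not listed. Of LAMA4, LAMB1 and COL15A1, only LAMA4 was listed in 24H muscle at 30 min. In 24H muscle at 30 min 6 of 8 endothelial markers were listed, all lower, and their summed level ranged from 1844 to 4601 normalized counts with a median of 2965, against 3213 to 7306 with a median of 3804 in controls. At 180 min 5 of 8 were listed, all lower, with sums of 914 to 2136 and a median of 1830, against 1598 to 3783 and 2277 in controls. In the 6D set after 180 min 1 of 8 was listed, CLDN5, a tight junction gene of endothelium, with a median of 835, against 1378 in controls. In the 6D set after 30 min 2 of 8 were listed, both lower, with a summed median of 1805, against 2746 in controls. LAMA4, LAMB1 and COL15A1 were not listed there. Of 7 markers of mural cells 2 were listed in 24H muscle at 30 min, 1 at 180 min and 2 in 6D muscle at 180 min, each with a negative fold change in the authors' deposited table, and their summed medians were 513, 286 and 1255 normalized counts, against 847, 591 and 1840 in controls. The 6D sums ranged from 421 to 4628, against 1317 to 3482 in controls. One of those 6D markers, MYH11, a smooth muscle myosin gene, had 146, 433 and 3884 normalized counts, against 568.1, 824 and 2449 in controls, and an edgeR log2 fold change of only -0.15 ± 0.50 (SE, n = 9 each, adjusted p = 1.0), against -0.83 in the authors' deposited table. None of these markers was at 0 in any library. In 24H muscle at 30 min the authors' deposited table called 4 of the 6 endothelial markers and 1 of the 2 mural markers, beside 37.0% of all listed genes. The mural marker was NOTCH3, a receptor gene of mural cells (log2 -0.65). At 180 min 0 of those listed were called, beside 14.4% of all listed genes in 24H muscle and 7.35% in 6D muscle. In 6D muscle at 30 min 0 were called too, beside 0.240%. The part of vessel cells in the levels of LAMA4, LAMB1 and COL15A1 was not tested.

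Of the other laminin and nidogen genes, LAMB3, the beta chain of epithelial laminin 332, was listed in both tables of the 6D set. It had 7.14, 11.8 and 25.6 normalized counts after 30 min, against 9.87, 24.4 and 70.7 in controls. After 180 min it had 3.77, 10.2 and 19.1, against 9.44, 23.1 and 67.6, and all 9 transported libraries lay below the control median. LAMB3 thus had log2 fold changes of -0.91 ± 0.34 and -1.28 ± 0.37 (SE, n = 9 each), with edgeR adjusted p-values of 0.797 and 0.218, and the authors' deposited table gives an adjusted p of 0.0553 at 180 min.

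NID1, which links the laminin and collagen IV networks, was higher in 24H muscle at 30 min, where LAMA4 was lower. It had 254, 444 and 779 normalized counts, against 216, 303 and 638.5 in controls, with an edgeR log2 fold change of 0.55 ± 0.22 (SE, n = 9 each, adjusted p = 0.112). LAMC3, a gamma chain, was listed in the same table at 0 to 7.92 normalized counts, against 0 to 1.98 in controls, and 7 of 9 transported libraries lay above every control. With at most 9 raw counts in a library its log2 fold change of 2.11 ± 0.63 (SE, edgeR adjusted p = 0.0664) rests on very few reads, and the adjusted p was 0.0285 without control library 8 and 0.0451 without control library 4. With each library left out in turn the edgeR adjusted p of LAMC3 ranged from 0.0285 to 0.128.

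Among the integrin beta subunits, ITGB1, the partner of most matrix-binding alpha subunits (ENSCHIG00000010934, chromosome 13, 19326903 to 19351002), had 1458, 1799 and 2663 normalized counts after 30 min in the 24H set, against 925, 1215 and 1992 in controls. All 9 transported libraries lay above the control median. The log2 fold change was 0.44 ± 0.16 (SE, n = 9 each, edgeR adjusted p = 0.0877, and 0.0260 without control library 8). With each library left out in turn the edgeR adjusted p of ITGB1 ranged from 0.0260 to 0.177. ITGB5, which pairs with the alpha V subunit, was lower in that table at 223, 345 and 506.5, against 350, 449 and 500.4 in controls, with 5 of 9 transported libraries below every control and library 25 above every control (log2 -0.36 ± 0.14 (SE), edgeR adjusted p = 0.103).

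ITGB7, a beta subunit of leukocyte integrins, was listed in the 6D set. It had medians of 30.6 normalized counts after 30 min and 28.3 after 180 min, against 43.7 and 41.5 in controls under the scaling of each table, and in each comparison 8 of 9 transported libraries lay below the control median. The log2 fold changes were -0.76 ± 0.34 and -0.71 ± 0.33 (SE, n = 9 each, edgeR adjusted p = 0.847 and 0.487). Control library 6 held its highest values, and without it they were -0.49 and -0.44. ITGA4, the alpha 4 subunit that can pair with it, was listed after 30 min in this set at a median of 28.6, against 39.2 in controls (log2 -0.63 ± 0.32 (SE), edgeR adjusted p = 0.898). Of the T and NK cell markers 1 of 8 was listed at each time in this set, lower in transported goats, and of 6 macrophage markers 3 were listed after 30 min, all lower, with a summed median of 127.7, against 219.4 in controls. After 180 min 2 of the 6 were listed, CD163 higher (edgeR log2 0.94) and AIF1 lower (-0.69), with a summed median of 124, against 119.1 in controls. The part of leukocytes in the levels of ITGB7 and ITGA4 was not tested.

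Among the alpha subunits, ITGA7, the laminin receptor subunit of muscle fibres, and ITGA6, another laminin receptor subunit, differed in direction after 180 min in the 24H set. ITGA7 had 2805, 4119 and 5082 normalized counts, against 2390, 2980 and 3718 in controls, and 5 of 9 transported libraries lay above every control (log2 0.40 ± 0.13 (SE, n = 9 each), edgeR adjusted p = 0.200). ITGA6 had 110, 150 and 237, against 132, 222 and 552 in controls, and 7 of 9 transported libraries lay below the control median (log2 -0.71 ± 0.24 (SE), edgeR adjusted p = 0.212).

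ITGA2B, known as the platelet integrin alpha subunit, was lower in 24H muscle at 30 min and in 6D muscle at 180 min. It had medians of 37.4 and 39.1 normalized counts, against 56.5 and 60.4 in controls, and 7 of 9 and 5 of 9 transported libraries lay below every control (log2 -0.52 ± 0.22 and -0.65 ± 0.22 (SE, n = 9 each), edgeR adjusted p = 0.128 and 0.318). No other of the 7 platelet markers was listed in muscle. ITGAE, the alpha subunit of an integrin of tissue lymphocytes, had a median of 26.4 after 30 min in the 24H set, against 34.4 in controls (log2 -0.55 ± 0.25 (SE), edgeR adjusted p = 0.146).

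ITGA10, a collagen receptor subunit (ENSCHIG00000027027, chromosome 3, 99059176 to 99082321), was listed in 3 tables and differed in direction between blood and muscle. In blood after 30 min it had 304, 421, 198 and 280 normalized counts in libraries 21, 22, 24 and 27, against 326, 453 and 504 as the lowest, median and highest control. In blood after 180 min it had 245, 310 and 464, against 394, 498 and 522 in controls, and 5 of 7 transported libraries lay below every control. In 6D muscle after 180 min it had 134, 188 and 238, against 127, 157 and 170 in controls, and 7 of 9 transported libraries lay above every control. The edgeR log2 fold changes were -0.55 ± 0.24 (SE, n = 4 and 7, adjusted p = 1.0), -0.49 ± 0.21 (n = 7 each, adjusted p = 0.427) and 0.26 ± 0.11 (n = 9 each, adjusted p = 0.450), and the difference between blood and muscle was not tested. In blood after 180 min 5 of 8 T and NK cell markers were listed (1 higher, 4 lower), with a summed median of 7232, against 10760 in controls, and 1 of 6 B cell markers, MS4A1, was lower, with a median of 3339, against 4979. In blood after 30 min 4 of 6 B cell markers were listed, all lower, with a summed median of 9606, against 16400 in controls. The part of lymphocytes in the level of ITGA10 was not tested.

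In 24H muscle after 180 min, 4 genes of the connective tissue outside the basement membrane had positive fold changes, with library 15 the highest library for each. THBS1 and THBS2 encode thrombospondins, FMOD encodes fibromodulin, a small proteoglycan that binds fibrillar collagen, and COL12A1 encodes a collagen of the surface of fibrils. THBS1 had 106, 155 and 1032 normalized counts, against 77.9, 140 and 237 in controls, and THBS2 had 32.8, 61.5 and 277, against 18.5, 38.6 and 77.6. FMOD had 113, 147 and 1202, against 54.5, 164 and 284 in controls, and COL12A1 had 80.2, 112 and 736, against 34.9, 98.6 and 162. The highest value of each was that of library 15, and for FMOD the transported median lay below the control median.

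The log2 fold changes were 1.05 ± 0.41 for THBS1, 1.07 ± 0.37 for THBS2, 0.88 ± 0.45 for FMOD and 0.79 ± 0.42 for COL12A1 (SE, n = 9 each), with edgeR adjusted p-values of 0.279, 0.218, 0.470 and 0.516. Without library 15 they were 0.52, 0.64, 0.21 and 0.11. Library 15 was the highest of the 180 min libraries for 6 of the 12 listed matrix genes, also FBN2 and LOXL4, and for 236 of the 1961 genes of the table. FBN2 kept a log2 fold change of at least 1.66 with any 1 library left out. No fibroblast marker of the 7 was listed in either 24H table, so their level in library 15 is not known here.

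**Figure D4:**
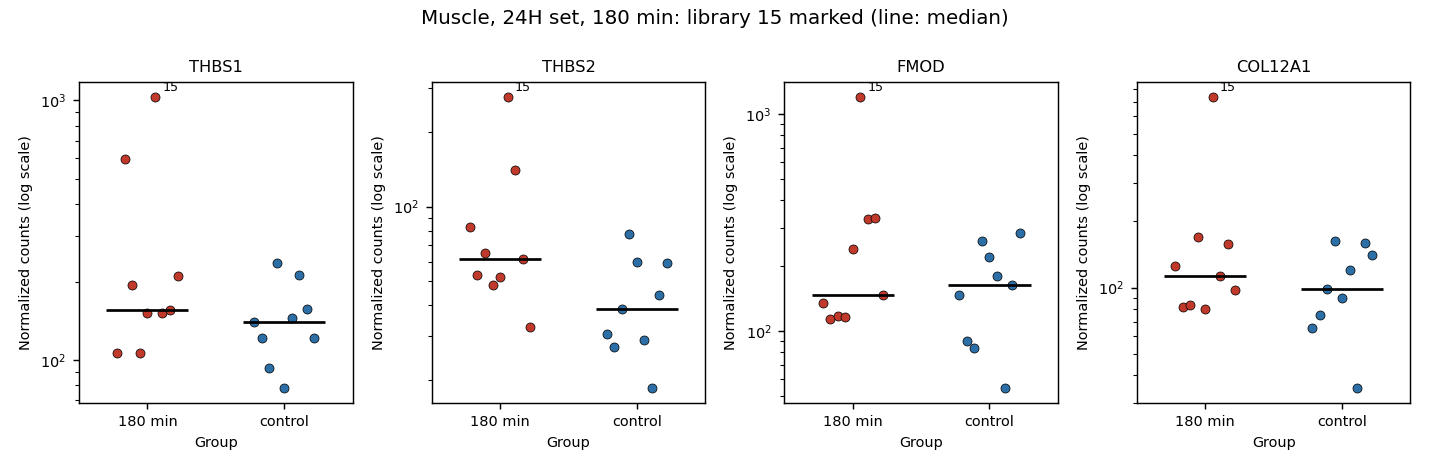
Each point is 1 library of 24H muscle after 180 min (red, left) or its controls (blue, right), with normalized counts on a log scale and a line at the median, for THBS1, THBS2, FMOD and COL12A1. Library 15, marked, is the highest in each panel, at 1032, 277, 1202 and 736 normalized counts.

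FMOD and COL12A1 had r = 0.797 (permutation p = 0.00136) and rho = 0.676 (permutation p = 0.00278) across the 18 libraries after removal of group means, and r = 0.502 without the 2 libraries farthest from the median. THBS1 and THBS2 had r = 0.331 (permutation p = 0.242) and rho = 0.0196 (permutation p = 0.944), and THBS1 and COL12A1 r = 0.385 (permutation p = 0.171) and rho = 0.0898 (permutation p = 0.719). The adjusted p-values of r over the 14 relations were 0.00341, 0.242 and 0.185. THBS1 was also high in library 11, at 593.5 normalized counts, where THBS2, FMOD and COL12A1 stood at 53.1, 113 and 81.7.

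The remaining collagen and proteoglycan genes of muscle were listed at 30 min. VCAN, encoding the large proteoglycan versican, had 60.0, 98.6 and 138 normalized counts in the 24H set, against 29.5, 54.3 and 118 in controls, and all 9 transported libraries lay above the control median (log2 0.56 ± 0.24 (SE, n = 9 each), edgeR adjusted p = 0.131). In the 6D set COL14A1, a collagen of fibril surfaces, had 96.8, 244 and 675, against 109, 183 and 277 in controls (log2 0.59 ± 0.28 (SE), edgeR adjusted p = 0.888). Its value was 0.28 without 30 min library 27, which held the highest level. SCARA5 and PDGFRA, 2 of the 7 fibroblast markers, were listed in that table too, with a summed level of 88.6 to 605 and a median of 338, against 144 to 299 and a median of 206 in controls, and their part in the level of COL14A1 was not tested.

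COL2A1 and COL9A3, collagens known from cartilage, were lower in the 6D set at 30 min and scarce in all libraries. COL2A1 had 5.50, 13.7 and 36.6 normalized counts, against 15.2, 22.7 and 52.1 in controls, and COL9A3 had 1.71, 9.19 and 11.5, against 1.89, 12.1 and 36.6. The log2 fold changes were -0.75 ± 0.37 and -0.92 ± 0.47 (SE, n = 9 each, edgeR adjusted p = 0.893 and 0.904), and that of COL9A3 was -0.59 without control library 5. COL4A3BP, the gene matched by name only, had a log2 fold change of 0.33 ± 0.16 (SE) in 24H muscle at 30 min (edgeR adjusted p = 0.165), and 0.21 without 30 min library 23.

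In blood after 180 min the lowest fold changes of the whole set were those of genes that connective tissue makes. COL1A1 and COL1A2 encode the chains of type I collagen, COL6A1 a chain of the type VI collagen found around cells, and DCN the proteoglycan decorin that binds collagen fibrils. COL1A1 had 0 to 11 raw counts in the 7 libraries of 180 min, against 83, 76 and 9 in control libraries 6, 7 and 8 and at most 5 in the other controls. COL1A2 had 0 to 4, against 69, 77 and 17 in those controls and at most 1 in the others. COL6A1 had 0 to 3, against 20, 32 and 25 and at most 1, and DCN 0 to 3, against 24, 40 and 20 and 0.

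Together the 4 genes had 553 raw counts in the 14 libraries, of which 492 (89.0%) lay in control libraries 6, 7 and 8. In the 7 libraries of 180 min the sum was 0 to 0.576 per M of library total, against 16.1 in control library 6 (exact Poisson 95% interval 13.9 to 18.5, for counting error only), 5.70 in library 7 (4.98 to 6.50) and 6.80 in library 8 (5.31 to 8.58). In control libraries 1, 3, 4 and 9 it was 0.262, 0, 0 and 0. All 4 genes were at 0 in 180 min libraries 10 and 11 and in control libraries 3, 4 and 9, where 3 counts would be 0.136 to 0.266 per M. The 180 min libraries thus overlapped with 4 of the 7 controls.

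**Figure D5:**
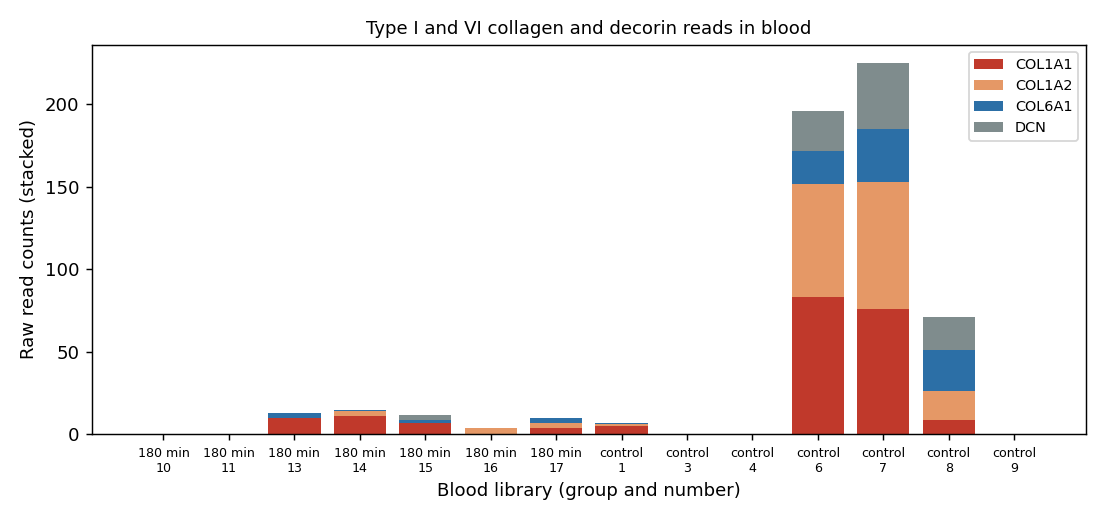
Bars give raw read counts of COL1A1, COL1A2, COL6A1 and DCN, stacked, in each blood library, with the 180 min libraries on the left and controls on the right. Control libraries 6, 7 and 8 hold 196, 225 and 71 counts, and no other library holds more than 15.

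The log2 fold changes were -3.09 ± 1.47 for COL1A1, -4.55 ± 1.60 for COL1A2, -3.81 ± 1.46 for COL6A1 and -4.87 ± 1.73 for DCN (SE, n = 7 each), with edgeR adjusted p-values of 0.492, 0.325, 0.364 and 0.328. They are set by a few counts beside zeros and are not bounds, and that of COL1A1 was -1.59 without control library 6 alone. With control libraries 6, 7 and 8 left out, the other 4 controls hold 7 counts of the 4 genes in all and 0 of DCN, too few to read a direction from. Of the 1247 genes of the table no other gene with at least 50 counts had 80% or more of them in those 3 libraries. No fibroblast or muscle fibre marker was listed in either blood table.

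COL8A2, a network-forming collagen of vessel walls and other tissues, differed in its libraries from those 4 genes. It had 0 to 4.42 normalized counts after 180 min, against 66.1 in control library 9, 21.6 in control library 8 and 0 to 6.23 in the other controls (log2 -2.72 ± 1.29 (SE, n = 7 each), edgeR adjusted p = 0.491, and -1.41 without control library 9). THBS3, a thrombospondin, was listed in blood after 30 min at 5.81, 11.2, 2.58 and 2.20 normalized counts in libraries 21, 22, 24 and 27, against 3.44, 11.5 and 55.6 as the lowest, median and highest control (log2 -1.87 ± 1.05 (SE, n = 4 and 7), edgeR adjusted p = 1.0).

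EMILIN2, an emilin also made by blood cells, had the highest level per gene length of the matrix genes listed in the blood tables, the only ones with a blood level here, at 47.0 FPKM after 180 min and 29.3 FPKM in controls on average. It had 2711, 2937 and 3967 normalized counts after 180 min, against 1125, 1759 and 3250 in controls, and all 7 transported libraries lay above the control median (log2 0.64 ± 0.24 (SE, n = 7 each), edgeR adjusted p = 0.358). The 5 of 8 neutrophil markers listed in that table were all higher, with a summed median of 98900 normalized counts, against 43980 in controls, and 2 of 5 monocyte markers were higher too, with 11050 against 4970. Their part in the level of EMILIN2 was not tested.

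EMILIN1, which binds elastic fibres, had 10.6, 28.8 and 267 normalized counts in blood after 180 min, against 0, 11.9 and 31.4 in controls. Its highest value was that of 180 min library 10. The log2 fold change was 2.07 ± 0.86 (SE, n = 7 each, edgeR adjusted p = 0.404), and 0.91 without that library. Of 8 endothelial markers 3 were listed there, all higher, with sums of 284 to 4223, against 157 to 815 in controls.

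The effect of 180 min was set directly against that of 30 min for the 6 cases in which a matrix gene was listed in both tables of a set, and 0 passed the edgeR test adjusted over the genes of both tables, of which 0 in blood, 5.35% in 24H muscle and 0.568% in 6D muscle passed. The log2 difference of 180 min over 30 min was 0.07 (95% interval -0.53 to 0.66) for ITGA10 in blood. In 24H muscle it was 0.17 (-0.73 to 1.06) for FBN2, -0.15 (-0.63 to 0.34) for LAMA4 and -0.01 (-0.70 to 0.68) for LOXL4. In 6D muscle it was -0.43 (-1.16 to 0.31) for LAMB3 and -0.01 (-0.66 to 0.64) for ITGB7. At an unadjusted p under 0.05 stood 0 of the 6, and the share of all genes of both tables at that threshold was not computed.

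The effect of 180 min in the 6D set was set against that in the 24H set for the 5 matrix genes listed in both tables, among 709 genes of which 0 passed the edgeR test. The difference of the log2 effects, 6D minus 24H, was -0.83 (95% interval -2.13 to 0.47) for FBN2. It was -0.04 (-0.81 to 0.74) for LAMA4, -0.02 (-0.67 to 0.64) for LAMB1, -0.04 (-0.82 to 0.74) for COL15A1 and 0.03 (-0.66 to 0.72) for COL27A1. These intervals ignore the pairing of same-numbered libraries. With the library number as a block the FBN2 difference was -0.88 ± 0.53 (SE, edgeR adjusted p = 0.998). In that fit it was 0.02 ± 0.26 for LAMA4, 0.03 ± 0.19 for LAMB1, -0.09 ± 0.22 for COL15A1 and 0.05 ± 0.23 for COL27A1 (SE, edgeR adjusted p = 0.998 for each).

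Genes that act with the matrix without being matched by name were read from 4 lists. Of 25 genes of collagen processing and secretion, 9 were listed in 24H muscle at 30 min (4 higher, 5 lower), and 3 were called there, beside 37.0% of all listed genes. The authors' deposited table called SEC23A and MIA3, which carry procollagen out of the endoplasmic reticulum, as higher (log2 0.68 and 0.40) and COLGALT1, a collagen galactosyltransferase, as lower (-0.46). SERPINH1, the collagen chaperone, was listed in 3 muscle tables with authors' deposited table values of -0.61 in 24H muscle at 30 min and -0.64 and -0.66 in 6D muscle at 30 and 180 min, none of them called. P4HA3, a prolyl hydroxylase subunit, was called as higher after 180 min in both sets, with authors' deposited table values of 0.91 and 1.02, where 14.4% and 7.35% of listed genes were called. In 24H muscle it had a median of 84.8 normalized counts, against 44.1 in controls (edgeR adjusted p = 0.131), and in 6D muscle 73.8 against 42.3 (edgeR adjusted p = 0.118).

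Of 24 genes of integrin adhesion complexes, 6 were listed in 24H muscle at 30 min (5 higher, 1 lower) and 4 at 180 min, all higher. The authors' deposited table called 3 and 2 of them, beside 37.0% and 14.4% of all listed genes. RAP1A, a small GTPase that activates integrins, rose after 180 min to 499, 695 and 892 normalized counts as the lowest, median and highest value, against 367, 417 and 579 in controls. Its log2 fold change was 0.63 ± 0.12 (SE, n = 9 each, edgeR adjusted p = 0.0355), and it was the only gene of the 4 lists that passed this test in any of the 6 comparisons. VCL, encoding vinculin of the links between integrins and actin, had medians of 793 after 30 min and 974 after 180 min, against 394 and 360 in controls (edgeR log2 0.78 and 1.11, adjusted p = 0.0650 and 0.212). PXN, encoding paxillin, and ZYX, encoding zyxin, were each called once in the authors' deposited table, at 0.46 after 30 min and 0.37 after 180 min.

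Of 19 genes of dystroglycan and other basement membrane anchors, 5 were listed in 24H muscle at 30 min (4 higher, 1 lower), 3 of them called as higher in the authors' deposited table, which called 37.0% of its listed genes. SSPN, encoding sarcospan, had a median of 287 normalized counts after 30 min, against 133 in controls (edgeR log2 1.15 ± 0.26 (SE, n = 9 each), adjusted p = 0.0609). DAG1, encoding dystroglycan, the other main laminin receptor of muscle fibres, had 1922 against 992 (edgeR log2 0.79, adjusted p = 0.0650), and SGCB, a sarcoglycan, 741 against 409 (0.77, adjusted p = 0.0709). AGRN, encoding the basement membrane proteoglycan agrin, was lower in 3 muscle tables, with edgeR log2 values of -0.53 in 24H muscle at 30 min, -0.65 at 180 min and -0.57 in 6D muscle at 180 min (adjusted p = 0.117, 0.255 and 0.557).

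Of 31 matrix-degrading and TGF-beta genes, 7 were listed in 24H muscle at 30 min (4 higher, 3 lower), of which 3 were called, beside 37.0% of all listed genes, and 0 were listed at 180 min. The authors' deposited table called MSTN, the muscle growth inhibitor myostatin, and the receptor gene TGFBR1 as higher (log2 1.34 and 1.09), and TIMP1, an inhibitor of matrix metalloproteinases, as lower (-0.87). In 6D muscle 4 were listed at 30 min, all higher, among them MSTN (1.26) and TGFBR1 (1.22). At 180 min 2 were listed there, TIMP1 (-0.57) and SMAD3 (-0.87), both lower. Of these 0 were called, beside 0.240% and 7.35% of all listed genes.

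In blood after 180 min the authors' deposited table called 1 of the 25 collagen processing genes and 1 of the 19 basement membrane anchor genes, where it called 5.61% of listed genes. These were ADAMTS2, whose enzyme trims procollagen, and HSPG2, encoding the basement membrane proteoglycan perlecan, both higher (log2 1.47 and 1.87 in the authors' deposited table). Their medians were 425 and 322 normalized counts, against 147 and 72.8 in controls, and their edgeR adjusted p-values 0.145 and 0.189.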

How the data were processed

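RNA of blood and muscle was sequenced; per the labels' protocols, a MagMAX kit for stabilized blood, an RNeasy Fibrous Tissue kit and the NEBNext Ultra kit were used. No source used here names the aligner, counter, genome build or use of strand, and coordinates are those of the deposited tables, so overlapping genes or close paralogs may carry uncertain counts. Raw counts per gene were deposited by the authors, beside normalized counts, a signal of counts divided by 1 size factor per library and table, as checked on the values. FPKM values are the authors' own, per the file headers. The log2 fold change and each p-value, raw or adjusted, were computed by the authors, per the file headers, with software that no source used here names.

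Size factors and library totals were recovered from the deposited counts, normalized counts and FPKM. How many genes entered the authors' adjustment (20719 and 9944 in blood at 30 and 180 min, 12649 and 14056 in 24H muscle, 16947 and 14384 in 6D muscle) was found by inverting the Benjamini-Hochberg formula, which matched the deposited adjusted p-values within a relative tolerance of 1e-06 for all or all but 3 adjusted genes of each table except blood at 30 min, where 31 of 430 matched. edgeR 4.0.16 (quasi-likelihood) was run on the raw counts of all listed genes with these size factors and adjusted over that number at a threshold of 0.05. For given p-values this adjustment is an upper bound, because unlisted genes are taken to have larger p-values. The dispersions came from listed genes only, which had been selected for a difference, so the edgeR p-values themselves are not bounds. Genes are said to have risen or fallen when they passed this edgeR test and the authors' adjusted p was under 0.05. DESeq2 1.42.0 and limma 3.58.1, other pseudocounts, library totals as scaling, a minimum mean of 50 normalized counts, adjustment over listed genes only and each library left out were alternatives. Direct tests of 180 min over 30 min and of 6D over 24H used the raw counts scaled to library totals, and the 6D over 24H test, the correlations (100000 permutations within groups) and the fit without 3 blood controls were added after the data were seen. Scripts ran under R 4.3.3 and, with pandas 2.3.3, numpy 2.4.6, matplotlib 3.10.9 and scipy 1.17.1, under Python 3.11.15, and the fits were tested on simulated counts. Those counts had a fixed dispersion and no selection of genes by p-value, and were adjusted over the listed genes only. They do not test how the selection of the tables affects the calls.

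Members were matched by gene name. The members and lists were chosen with earlier results of these data known, and every member is named, with values for those called, listed in 3 tables or chosen after their values were seen. Replicates are libraries of 1 group with different numbers, and no label states more of their origin than the number, so p-values measure the spread between these libraries. Library numbers pair the muscle sets: over 558 genes, same-numbered libraries had deviations from their group means that correlated at 0.344 to 0.817 (median 0.625) in all 18 pairs. No 2 libraries held the same values, and the control libraries are shared by the tables of a set.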

Additional observations from a re-analysis of the deposited data

Results flagged for a closer look

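Of 108 groups of values, 1 for each group of libraries in each listing, 11 (10.2%) had a highest or lowest library far from the others by Dixon's test on log2(normalized counts + 1), where chance flags about 1 in 20. In blood after 180 min, control library 6 had the lowest ITGA10 value, 394 normalized counts with the next at 489, and 180 min library 15 was the only 1 of its group with DCN reads, at 2.92. In 24H muscle at 30 min, library 23 had the highest ITGB1 value, 2663, and the log2 fold change without it was 0.35. Control library 7 had the lowest LOXL4 value in both 24H tables, 1.18 and 1.09 under their scalings, a single low library read through a pair of tables.

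In 24H muscle after 180 min, library 14 had the lowest FBN2 value, 2.67, and library 15 the highest values of FMOD, 1202 with the next at 333, and of COL12A1, 736 with the next at 169. In 6D muscle after 180 min, LOXL2 had a high library in each group, 180 min library 13 at 137 and control library 9 at 224, and control library 5 had the highest LOXL3 value, 116. The log2 fold changes without the library named were 1.95 for FBN2, 0.21 for FMOD, 0.11 for COL12A1, -0.42 for LOXL2 (control library 9) and -0.35 for LOXL3.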

How the results depend on the processing

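The count of matrix genes past the edgeR test was 0 in each of the 6 comparisons, and it stayed 0 with limma at pseudocounts of 0.5, 1 and 5, with library totals as scaling and with a minimum mean of 50 normalized counts. With DESeq2 it was 2 in 24H muscle at 30 min and 1 at 180 min. Adjusted over the listed genes alone, which ignores the genes that failed to be listed, it was 4 in blood at 180 min. In 24H muscle it was then 11 and 7 at 30 and 180 min, in 6D muscle 4 at 180 min, and 0 in the others. The share of all listed genes past this adjustment was not computed, so these counts show nothing particular to matrix genes. An unadjusted edgeR p under 0.05 was held by 81.6% of listed genes in blood and 86.7% in 6D muscle, both at 180 min. In 24H muscle it was held by 90.4% and 91.4% at 30 and 180 min. With each library left out the count of matrix genes ranged from 0 to 3 in 24H muscle at 30 min and from 0 to 1 at 180 min. It was 0 throughout in the other 4 comparisons and in the direct tests of 180 min over 30 min. Without library 9, whose labels conflict, it was 0 in all muscle tables. It was also 0 in blood at 180 min without control libraries 6, 7 and 8, which were chosen for their counts, and that value says nothing about stability. All listed genes past the test numbered 12 with edgeR, 1328 with DESeq2 and 21 with limma in 24H muscle at 30 min, 24, 275 and 28 at 180 min, 12, 121 and 7 in 6D muscle at 180 min, 8, 126 and 9 in blood at 180 min, 0, 3 and 1 in 6D muscle at 30 min and 0, 6 and 0 in blood at 30 min; the cause was not tested. No paired analysis was possible within a table because its groups share no number; between the muscle sets, the replicate block left 0 of 5 genes past the test, as without it. Of the 54 listings 25 had a mean under 50 normalized counts, where counting error adds to the spread.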
